A study of Xenopus laevis with 12 samples.

Results

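The gene models bdnf.L, fgf9.L, gfra2.L and gfra2.S encode a neurotrophin, a fibroblast growth factor and both homeologous copies of a receptor for a GDNF family ligand. Their ribosome-bound transcripts were followed in the retinal ganglion cells of the frog Xenopus laevis, after the optic nerve of the adult had been crushed. These 4 of the 45099 gene models in the tables were taken by their symbols, and they were selected from their measured ratios of crushed to contralateral eye, with earlier results of these data known. Their response to crush is therefore given as a description with no test. The remaining homeologs, bdnf.S and fgf9.S, are given beside them.

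All frogs carried the transgene Tg(islet2b:EGFP-RPL10a), an EGFP-tagged ribosomal protein driven by an islet2b promoter, and were F1 progeny of single female founders, more than 6 months old and 3.5 to 5.0 cm long. Ribosome-bound RNA was recovered from whole retinas with antibodies against EGFP (translating ribosome affinity purification, TRAP), after removal of the lens and the pigment epithelium. The 4 crush libraries came from the right eye at days 1, 3, 7 and 11 after a crush 5 mm from the optic nerve head. The 4 contralateral libraries came from the unoperated left eye of the same frogs, although 1 sentence of the design text places the injury on the left. The other libraries were 1 of naive (unoperated) frogs, 1 of the left and 1 of the right eye of sham-operated frogs at day 1, and 1 of total retina RNA without TRAP. Each TRAP library pooled 3 biological replicates, so each eye and day is 1 library. Naive, sham and contralateral libraries make up the 7 uncrushed TRAP libraries below.

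BDNF is a secreted neurotrophin that acts on the receptor TrkB and, as its precursor, on p75NTR together with sortilin. It is best known in the visual system, from mammals and frogs, as a survival and branching factor for ganglion cells. FGF9 is a secreted fibroblast growth factor, which signals through FGF receptor tyrosine kinases, heparan sulfate and the MAP kinase cascade. GFRA2 is a lipid-anchored surface protein that binds neurturin and presents it to the receptor tyrosine kinase RET. Xenopus laevis is an allotetraploid, and many of its genes exist as an .L and an .S copy from its 2 ancestral subgenomes.

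Total expected counts ranged from 16820571 to 63299998 per library. Levels are CPM, that is counts scaled by library size with TMM factors. The summed level of 22 ganglion cell marker genes was 9881 to 10510 CPM in the 7 uncrushed TRAP libraries and 1222 CPM in total retina, whereas 22 photoreceptor markers summed to 2194 to 2909 CPM and 38020 CPM. In the crushed eye the ganglion cell sum was 9651, 5843, 2604 and 3621 CPM at days 1, 3, 7 and 11. The number of ganglion cell markers below their contralateral level was 10, 18, 20 and 18 of 22 on those days. In these bulk samples, fewer ganglion cells and less RNA per cell cannot be told apart. The sums of Mueller glia and astrocyte markers (18 genes, 856.2 to 1219 CPM in crushed and 999.2 to 1305 CPM in uncrushed eyes) and of oligodendrocyte and Schwann cell markers (14 genes, 190.3 to 652.8 against 594.5 to 750.6 CPM) gave no crush library above the uncrushed range at days 3, 7 or 11. In total retina these sums were 4481 and 249.6 CPM, so the second list was higher in uncrushed TRAP RNA than in total retina. A low sum of that list is thus no plain measure of other cell types. Abundant genes lead such sums, and single markers differed from them. Of 11 Mueller glia and astrocyte markers with 200 counts, 4 exceeded their contralateral level over 2-fold at day 11 and 2 were over 2-fold below it (median log2 ratio 0.65), against 19.6% and 19.3% of all genes. Among them vim.L, the intermediate filament vimentin, had 404.4 CPM in the crushed and 11.0 CPM in the contralateral eye. Of 5 oligodendrocyte and Schwann cell markers, the peripheral myelin genes pmp22.L and pmp22.S were over 2-fold higher at days 3, 7 and 11. Their log2 ratios were 3.08 and 2.85 at day 11, and the myelin gene mpz.L was at -3.29. Over 2-fold lower were 1 of the 5 at days 3 and 7 and 2 at day 11. Of all genes, 8.18%, 20.7% and 19.6% were over 2-fold higher at days 3, 7 and 11, and 5.49%, 14.9% and 19.3% lower. As sums, none of the 9 marker lists of other cell types lay above its uncrushed range at days 3, 7 or 11, and 2 did at day 1 (leukocytes and microglia at 9.96 CPM against at most 9.72 CPM, lens and cornea at 42.5 CPM against at most 41.6 CPM). Markers at 0 in all 11 TRAP libraries were gad1.2.S, vim.2.S, dct.S, ttr.S, olig1.L, olig1.S, olig2.L, krt12.S, krt5.3.L and krt5.3.S.

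**Figure D1:**
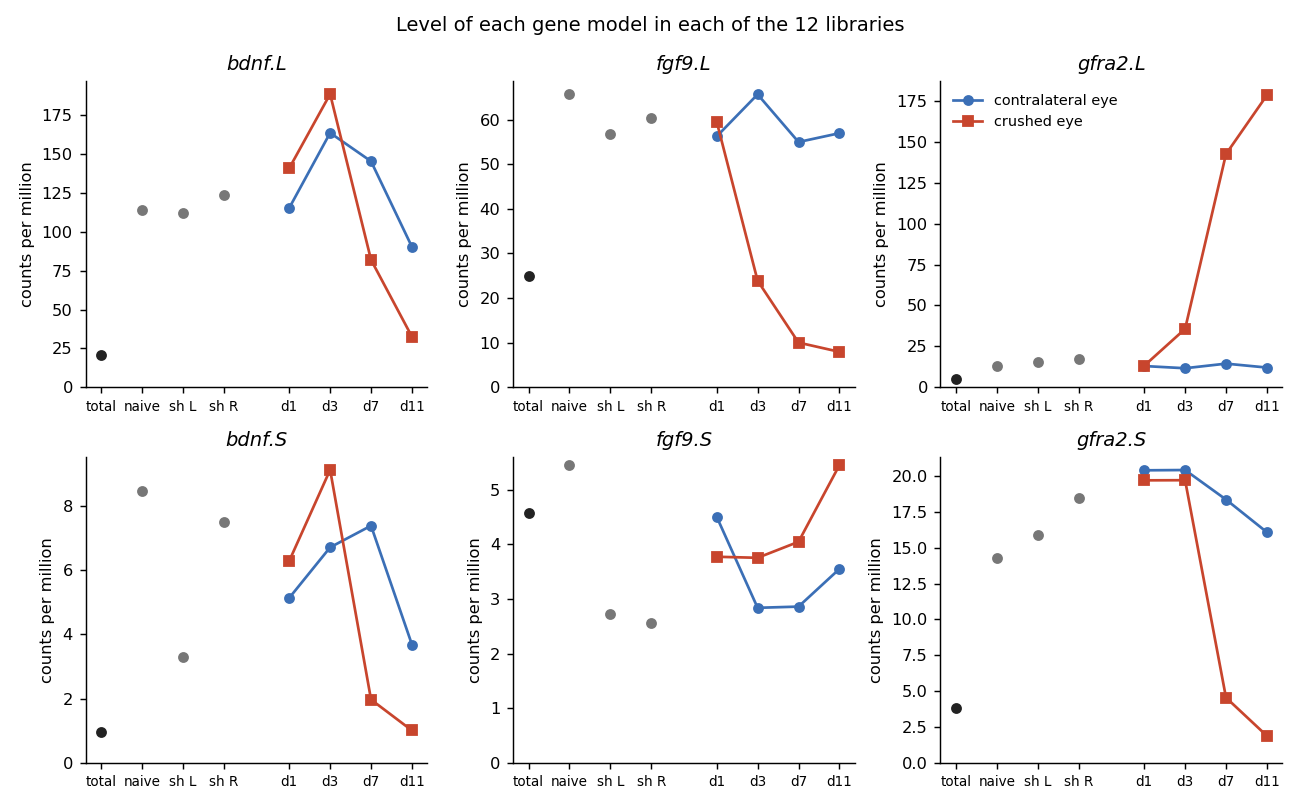
Level (CPM, linear axes from 0 that differ between panels) of each gene model in the 12 libraries: total retina (total), naive, sham left and right (sh L, sh R) as single points, and crushed and contralateral eyes at days 1, 3, 7 and 11 (d1 to d11) as joined points, each point 1 library. At day 11 the crushed eye had 178.6 CPM of gfra2.L and 1.88 CPM of gfra2.S, against 12.0 and 16.1 CPM in the contralateral eye.

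Transcripts of bdnf.L were a little higher in the crushed eye than in the other eye at days 1 and 3 and lower at days 7 and 11. Contralateral libraries had 115.4, 163.8, 145.5 and 90.4 CPM at days 1, 3, 7 and 11. Crush libraries had 141.0, 188.8, 82.0 and 32.5 CPM. The crushed eye at day 3 was above all 7 uncrushed TRAP libraries, and at days 7 and 11 below all of them. The naive library had 113.8 CPM, and sham left and right had 112.0 and 123.8 CPM, with 20.8 CPM in total retina.

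As folds, bdnf.L was 2.78-fold lower at day 11 (95% counting interval 2.61 to 2.97) and 1.77-fold lower at day 7 (1.69 to 1.86). Its log2 ratio was 0.29 at day 1 and 0.20 at day 3, against 0.14 between the sham eyes. Such intervals cover counting error only, since each ratio sets 1 library against 1. Over the 4 days the log2 ratio averaged -0.45 ± 0.85 (SD, n = 4 days), with 2 days higher and 2 lower, so the mean describes no single day. The summed ganglion cell markers were already lower at day 3, when bdnf.L was not, and their part in the later decrease was not tested.

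The second copy, bdnf.S, was rarer and took a like course. It had 5.13, 6.71, 7.38 and 3.68 CPM in contralateral eyes and 6.28, 9.12, 1.97 and 1.01 CPM in crushed eyes at days 1, 3, 7 and 11. It was 3.77-fold lower at day 7 (2.88 to 4.90) and 3.69-fold lower at day 11 (2.56 to 5.35). The sham eyes were themselves apart in bdnf.S, with 3.29 CPM on the left and 7.51 CPM on the right. The naive eye had 8.46 CPM and total retina 0.96 CPM.

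Transcripts of fgf9.L were lower in the crushed eye from day 3 on. In contralateral eyes the level was 56.2, 65.7, 55.0 and 57.0 CPM at days 1, 3, 7 and 11. In crushed eyes it was 59.5, 23.9, 9.99 and 7.91 CPM. At days 3, 7 and 11 the crushed eye lay below all 7 uncrushed libraries, which varied little (59.6 ± 4.53 CPM, SD, n = 7; 55.0 to 65.8 CPM). The naive eye had 65.8 CPM, the sham eyes 56.8 CPM on the left and 60.4 CPM on the right, and total retina 25.0 CPM.

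Against the contralateral eye fgf9.L was 2.75-fold lower at day 3 (2.5 to 3.03), 5.5-fold lower at day 7 (4.95 to 6.13) and 7.2-fold lower at day 11 (6.39 to 8.14). At day 1 its log2 ratio was 0.08, and between the sham eyes 0.09. The mean over the 4 days was -1.67 ± 1.30 (SD, n = 4 days), with 3 days lower. Its steps between successive crush libraries were 2.5-fold, 2.39-fold and 1.26-fold downwards, the smallest being the last. The ganglion cell marker sum was lower on the same days, and its part in the fgf9.L values was not tested.

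The other copy, fgf9.S, did not share this course. It had 4.51, 2.84, 2.86 and 3.55 CPM in contralateral eyes and 3.77, 3.75, 4.05 and 5.45 CPM in crushed eyes. Every crush library of fgf9.S lay within the range of the uncrushed ones, whose lowest and highest were 2.56 CPM in sham right and 5.46 CPM in naive. Its log2 ratio was -0.25, 0.40, 0.49 and 0.61 at days 1, 3, 7 and 11. At day 11 the 95% counting interval of its contralateral over crush ratio was 0.527 to 0.804, and at days 1 and 3 the interval held 1. The late fgf9.S ratios depended on the scaling, which these intervals do not cover. With total counts in place of TMM they were 0.209 and 0.236 at days 7 and 11. With the deposited TPM values they were 0.054 and 0.006. Total retina had 4.58 CPM, close to the naive eye.

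The copies of the receptor lay on opposite sides of their contralateral level late after crush. gfra2.L had 12.9, 11.6, 14.4 and 12.0 CPM in contralateral eyes and 13.1, 35.6, 142.6 and 178.6 CPM in crushed eyes at days 1, 3, 7 and 11. The naive eye had 12.8 CPM, the sham eyes 15.6 CPM on the left and 17.3 CPM on the right, and total retina 4.72 CPM. The crushed eye stood above every uncrushed library from day 3 on, and at day 1 it was among them.

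The gfra2.L fold over the contralateral eye was 3.08 at day 3 (2.74 to 3.48), 9.94 at day 7 (8.75 to 11.3) and 14.9 at day 11 (13.7 to 16.3). The mean log2 ratio was 2.21 ± 1.75 (SD, n = 4 days), higher on 4 of 4 days, although the log2 ratio of day 1 was 0.02, below the 0.15 between the sham eyes. Successive crush libraries were 2.73-fold, 4.0-fold and 1.25-fold apart, so that the level changed least between days 7 and 11. These values rest on 6749 expected counts in the crushed eye and 552.7 in the contralateral eye at day 11. On the days when gfra2.L was high, the summed marker lists of other cell types were within or below their uncrushed ranges. Among these lists, that of oligodendrocytes and Schwann cells was higher in uncrushed TRAP RNA than in total retina. The single markers vim.L, pmp22.L and pmp22.S were higher too on those days. They were named after their values were seen, and other markers of their lists were lower. At day 11, 4 of 11 Mueller glia and astrocyte markers were over 2-fold higher and 2 lower. Of 5 oligodendrocyte and Schwann cell markers, 2 were higher and 2 lower, against 19.6% and 19.3% of all genes. The part of other cell types in the gfra2.L values was not tested.

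In the same libraries gfra2.S had 20.4, 20.4, 18.4 and 16.1 CPM in contralateral eyes and 19.7, 19.7, 4.55 and 1.88 CPM in crushed eyes. The naive eye had 14.3 CPM, the sham eyes 15.9 CPM on the left and 18.5 CPM on the right, and total retina 3.84 CPM. Crushed eyes overlapped the uncrushed ones at days 1 and 3 and lay below all of them at days 7 and 11. gfra2.S was 4.04-fold lower at day 7 (3.41 to 4.79) and 8.56-fold lower at day 11 (6.71 to 11.1), with 71.0 expected counts left in the crushed eye. Its mean log2 ratio was -1.29 ± 1.5 (SD, n = 4 days). The log2 ratios of days 1 and 3 were both -0.05, and they were 0.17 on both days against the mean of the 7 uncrushed libraries. The ganglion cell marker sum was low at days 7 and 11 as well, and at day 3, when gfra2.S was not; its part was not tested.

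**Figure D2:**
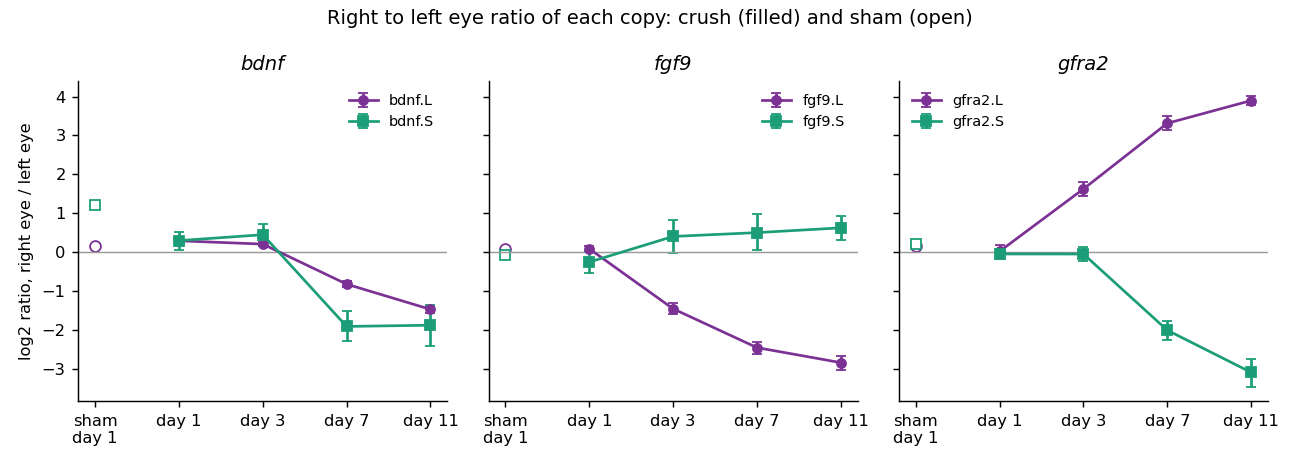
Log2 ratio of right to left eye without a prior count, for both copies of each gene: crush at days 1, 3, 7 and 11 as filled points with 95% counting intervals, and sham at day 1 as open points. gfra2.L was at 14.9-fold at day 11, whereas gfra2.S and fgf9.L were 8.56-fold and 7.2-fold lower.

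Ratios over 2-fold were common in these eyes, and ratios as large as those of gfra2.L were not. Over 2-fold higher in the crushed eye were 1.32% of genes with 200 counts over the pair at day 1, 8.18% at day 3, 20.7% at day 7 and 19.6% at day 11. Over 2-fold lower were 0.76%, 5.49%, 14.9% and 19.3% on those days, against 0.458% higher and 0.901% lower between the sham eyes. The next shares are over another set, 22069 genes with a mean of 1 CPM or more over the 11 TRAP libraries. Above all 7 uncrushed libraries lay 30.1%, 37.7% and 36.6% of these at days 3, 7 and 11, and below all of them 29.4%, 34.4% and 36.3%. With total counts in place of TMM the median log2 ratio of all genes shifted to -0.25 at day 7 and -0.43 at day 11. The late ratios of the members kept their signs, but their sizes depended on the scaling. At day 11 gfra2.L was at 3.89 with TMM, 3.51 with total counts and 3.28 with the deposited TPM values. In that order fgf9.L was at -2.84, -3.22 and -3.42, gfra2.S at -3.06, -3.44 and -3.59, and bdnf.L at -1.475, -1.854 and -2.077. The counting intervals do not cover this dependence. By its ratio at day 11, gfra2.L was the 218th highest of 19170 genes, gfra2.S the 526th lowest, fgf9.L the 647th lowest and bdnf.L the 2355th lowest. These ranks describe how the members were chosen and are no test.

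Taken as 1 gene, gfra2 was higher after crush. The summed counts of its copies were 0.984-fold, 1.73-fold, 4.5-fold and 6.43-fold the contralateral level at days 1, 3, 7 and 11. These counts were not divided by length. The models of gfra2.L and gfra2.S have 1377 and 2300 bases, so the .S copy weighs more in this sum. Per kilobase of effective length (given with the counts for each model and library), gfra2.L had 57.1 ± 5.03% of the copies' sum in the 7 uncrushed libraries (SD, 49.4% to 62.8%). In crushed eyes its share was 53.2%, 75.7%, 98.2% and 99.4%. In total retina it was 67.9%. Both copies were thus at near levels without crush, and the .L copy made up nearly all of the sum at days 7 and 11.

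**Figure D3:**
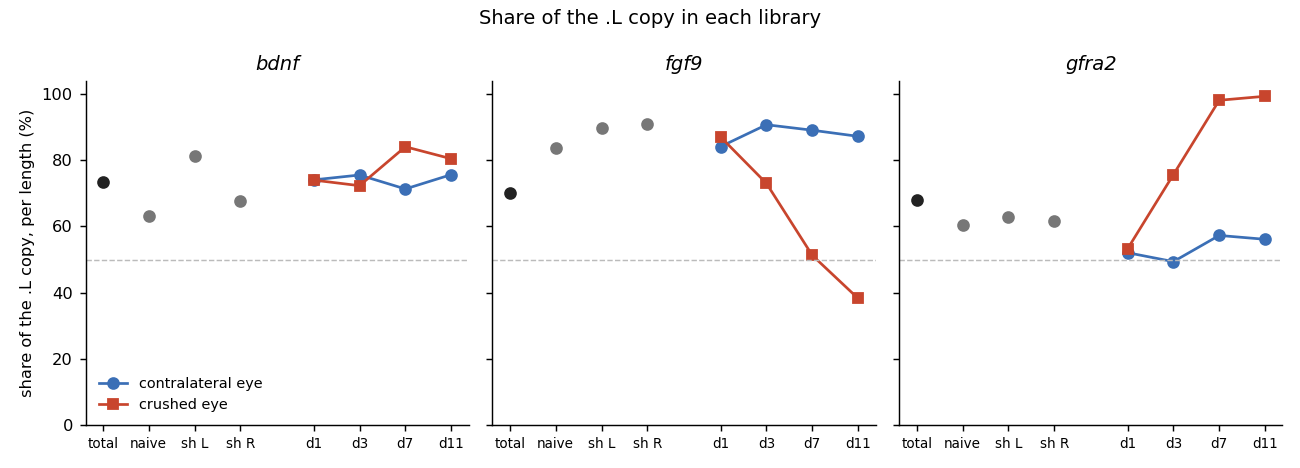
Share of the .L copy in the summed level per length of each gene (percent) in the 12 libraries, drawn as in the plot of levels, with a dashed line at equal shares. The gfra2 share went from 53.2% to 99.4% over the crush days, that of fgf9 from 87.1% to 38.2%, and that of bdnf stayed between 72.3% and 84.1%.

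In fgf9 the balance moved the other way. Per kilobase, the .L share was 88.0 ± 3.03% in the uncrushed libraries (SD, n = 7, range 83.7% to 91.0%). It was 87.1%, 73.0%, 51.3% and 38.2% in crushed eyes at days 1, 3, 7 and 11. Without division by length it was 94.0%, 86.4%, 71.2% and 59.2% on those days, still the larger part. The models of fgf9.L and fgf9.S have lengths of 3242 and 1437 bases, those of bdnf.L and bdnf.S 6024 and 848. Among the crush libraries fgf9.L went from 59.5 to 7.91 CPM while fgf9.S stayed within its uncrushed range. The bdnf share was 72.7 ± 5.97% (SD, n = 7; 63.0% to 81.3%) without crush and 74.0%, 72.3%, 84.1% and 80.5% with it, so that only day 7 lay outside the uncrushed range. Without division by length the bdnf share in crushed eyes was 95.7%, 95.4%, 97.7% and 97.0% at days 1, 3, 7 and 11. Fractional expected counts of gfra2.L and gfra2.S added up to a whole number (within 0.011) in 12 of 12 libraries, those of bdnf in 10 of 12 and those of fgf9 in 0 of 12. Some reads of gfra2 and bdnf were thus divided between the copies by RSEM, and the split of such reads is an estimate. For fgf9 the sums do not show whether reads were divided between its copies or with other models.

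Set against other homeologous pairs, the distance between the gfra2 copies was wide at days 7 and 11. The log2 ratio of gfra2.L less that of gfra2.S was 0.07, 1.67, 5.31 and 6.96 at days 1, 3, 7 and 11. Pairs with symbols and 200 counts for each copy numbered 3752, 3373, 3515 and 3643, and in 2991, 86, 1 and 0 of them the copies lay further apart. At day 7 the pair ahead was cnp-like, and at day 11 the next was hspb1, a small heat shock protein, at 6.2. Over 2-fold up in one copy and over 2-fold down in the other were 0, 9, 32 and 35 pairs, or 0.961% at day 11. The gfra2 copies were compared because they differ, so these counts are no test.

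**Figure D4:**
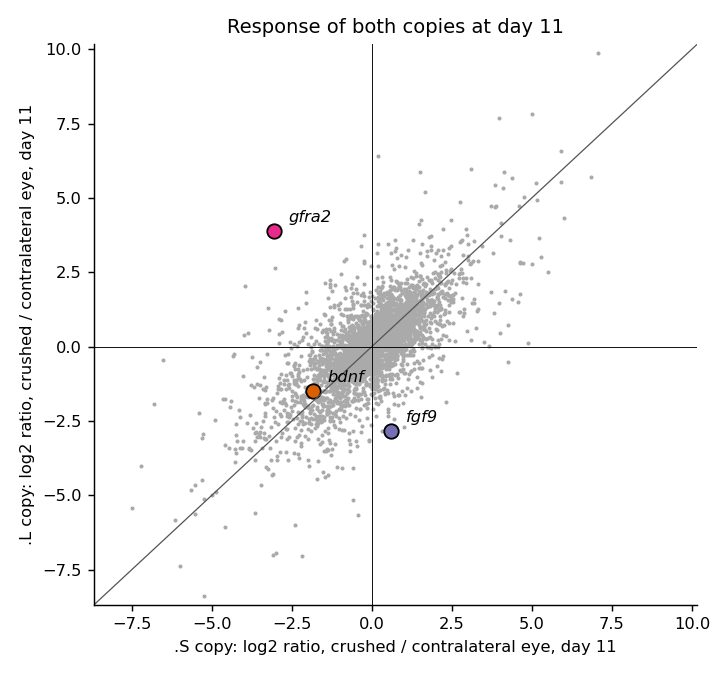
Log2 ratio of crushed to contralateral eye at day 11 of the .L copy (vertical axis) against that of the .S copy (horizontal axis) for 3643 homeologous pairs, each 1 grey point, with the diagonal of equal ratios; gfra2, fgf9 and bdnf are marked in colour. gfra2 lies at 3.89 for .L and -3.06 for .S, far from the diagonal.

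Levels of different genes were compared per kilobase of effective length. In the 7 uncrushed libraries bdnf.L had 20.8 ± 4.08 CPM per kb and fgf9.L 18.9 ± 1.44 (SD), with overlapping ranges of 15.2 to 27.6 and 17.5 to 20.9. Below them came gfra2.L at 10.8 ± 1.64, then gfra2.S at 8.04 ± 1.07 and bdnf.S at 8.01 ± 2.68 CPM per kb. The last 3 overlapped one another, and fgf9.S was lowest at 2.61 ± 0.82 CPM per kb. In the crushed eye at day 11 gfra2.L led with 139.4 CPM per kb, ahead of bdnf.L at 5.48, fgf9.S at 4.07, fgf9.L at 2.52, bdnf.S at 1.34 and gfra2.S at 0.853. By level per length gfra2.L thereby passed from rank 7568 in the contralateral eye at day 11 to rank 879 in the crushed eye, and gfra2.S from 8978 to 19295.

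All 4 genes were more abundant in TRAP RNA than in total retina. In naive frogs bdnf.L was 5.47-fold (5.01 to 5.97), gfra2.S 3.73-fold, gfra2.L 2.71-fold and fgf9.L 2.63-fold the total retina level. The intervals of these folds cover counting error only, and each side is 1 library. Over 2-fold higher in naive TRAP were 19.3% of 19677 genes. bdnf.L ranked 436th among them, gfra2.S 920th, gfra2.L 1905th and fgf9.L 1981st. bdnf.S was 8.88-fold higher, and fgf9.S 1.2-fold, with an interval of 0.961 to 1.49.

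Whether the eye opposite to a crush differed from eyes of unlesioned frogs was tested on 4 contralateral against 3 unlesioned libraries (naive and both sham eyes, the latter from the same frogs). Of 26596 genes, 0 passed edgeR's quasi-likelihood test at an adjusted p of 0.05, which is 0%, with 1804 at an unadjusted p under 0.05 and 18 by DESeq2. The log2 difference, contralateral less unlesioned, was 0.15 ± 0.15 (SE) for bdnf.L (edgeR adjusted p = 0.92) and -0.06 ± 0.10 for fgf9.L (adjusted p = 0.968). It was -0.26 ± 0.17 for gfra2.L (adjusted p = 0.816) and 0.22 ± 0.15 for gfra2.S (adjusted p = 0.831). None of the members passed, which does not show that the eyes were alike. The members were selected from ratios that used the same contralateral libraries, so their p-values are not independent of that choice.

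Genes of the same pathways were taken from 8 lists, leaving out the 4 members. The lists were fixed with earlier results of these data known. The share of a list that passed, set beside that of all genes, is therefore a description and no test of the list. In the edgeR test of 1 crush effect over the 4 days, 10 of 26004 genes passed (0.0385%) and none was on these lists. That count depended on the settings, with 3127 genes by DESeq2, 2678 without day 1, and 0 without day 7 or without the block by day, and the list genes among those were not counted. A second edgeR test, with 2 residual degrees of freedom, asked whether the log2 ratio of crushed to contralateral eye changed with log2 of the day, and 5.83% of genes rose and 6.85% fell. With total counts in place of TMM the same test gave 881 rising and 2596 falling genes, against 1515 and 1781. Over all genes the median slope was -0.03 log2 units per step in log2 of the day. Slopes below carry SE and the edgeR p adjusted over all genes tested. Each of the 20 list genes that passed lost the call when 1 of the days was left out, and the day and its p are given list by list.

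Of 24 neurotrophins, receptors, sortilins and processing enzymes, 0 rose and 5 fell (all genes: 5.83% and 6.85%), with a median slope of -0.44. Of the 5, 4 belong to peptide maturation, namely the prohormone convertases pcsk2.L (-0.84 ± 0.15, adjusted p = 0.00933), pcsk1.L (-0.80 ± 0.18, adjusted p = 0.0174) and pcsk1.S (-1.23 ± 0.26, adjusted p = 0.0157), and the carboxypeptidase cpe.1 (-0.47 ± 0.11, adjusted p = 0.0214). The other was the sortilin family receptor sorcs2.L (-0.84 ± 0.23, adjusted p = 0.0409). pcsk2.L had 272.1 CPM in the contralateral eye and 39.6 CPM in the crushed eye at day 11, a 2-library comparison like that of the members. The abundant cpe.S and the sorting receptor sort1.S did not pass (adjusted p = 0.467 and 0.846). Of the list genes with 200 counts, 3 of 17 were over 2-fold higher and 6 lower at day 7. At day 11, 4 of 16 were higher and 7 lower. Of all genes 20.7% and 19.6% were higher at days 7 and 11, and 14.9% and 19.3% lower. Without day 1, pcsk1.L had adjusted p = 0.0701 and cpe.1 adjusted p = 0.079. Without day 7, sorcs2.L had adjusted p = 0.105 and cpe.1 adjusted p = 0.101. Without day 11, sorcs2.L, pcsk1.S, pcsk2.L and cpe.1 had adjusted p = 0.246, 0.146, 0.0819 and 0.149. Without the block by day, sorcs2.L, pcsk1.S and pcsk2.L had adjusted p = 0.118, 0.095 and 0.0686. No gene model carried the symbol of TrkB (ntrk2), which was not analysed here.

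Of 9 genes tested of the GDNF family list, 0 rose and 0 fell, with a median slope of 0.22. Of those with 200 counts, 2 of 5 were over 2-fold higher at day 3 and 3 of 5 at day 7, with 0 lower. At day 11, 1 of 6 was higher and 1 lower. Of all genes 8.18%, 20.7% and 19.6% were higher on these days, and 5.49%, 14.9% and 19.3% lower. The cell adhesion molecule ncam1.L, which can serve as a GDNF receptor in mammals, had log2 ratios between -0.22 and 0.05 over the days. The heparan sulfate proteoglycan sdc3.L had 0.27, 1.48, 1.41 and 1.00 at days 1, 3, 7 and 11 (slope adjusted p = 0.346). RET, neurturin, artn, gfra1 and gfra4 had no gene model with their symbol and were not analysed here.

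Of 15 FGF ligands, 0 rose and 1 fell, fgf11.1, an intracellular FGF (-0.46 ± 0.13, adjusted p = 0.0408). Its adjusted p was 0.178 without day 1, 0.0712 without day 7 and 0.372 without day 11. The abundant fgf14.S, also intracellular, and fgf1.L stood at -1.45 and -1.13 on the log2 scale at day 11 and did not pass (adjusted p = 0.0952 and 0.283). Their other copies, fgf14.L and fgf1.S, stood at -0.449 and 0.175. The median slope of the list was -0.16. Over all genes 6.85% fell, so 1 of 15 is near the background share.

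Of 19 FGF receptors and coreceptors, 1 rose and 2 fell, with a median slope of -0.16. Of all genes 5.83% rose and 6.85% fell, so the 1 rising gene is near the background share. The glypican gpc1.L rose (0.42 ± 0.12, adjusted p = 0.0389). It had adjusted p = 0.11 without day 1, 0.144 without day 7 and 0.276 without day 11, and adjusted p = 0.108 with total counts and 0.08 without the block by day. The leucine-rich repeat proteins flrt2.L (-0.70 ± 0.13, adjusted p = 0.0112) and flrt3.L (-0.77 ± 0.16, adjusted p = 0.0161) fell. Their adjusted p was 0.089 and 0.12 without day 11. Log2 ratios of flrt1.S were 1.61, 1.67 and 1.37 at days 3, 7 and 11, but its slope did not pass (adjusted p = 0.096), nor did that of gpc1.S (0.517). The other copy, flrt1.L, was at 0.265 at day 11.

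Of 20 feedback targets of FGF and MAP kinase signalling, 0 rose and 6 fell (all genes: 5.83% and 6.85%), with median slope -0.46. They were the Sprouty genes spry4.S (-0.88 ± 0.16, adjusted p = 0.00892) and spry3.S (-1.29 ± 0.34, adjusted p = 0.0336), and the Spred genes spred1.L (-0.49 ± 0.13, adjusted p = 0.0331) and spred3.L (-0.66 ± 0.18, adjusted p = 0.0427). With them fell the MAP kinase phosphatases dusp4.L (-0.71 ± 0.13, adjusted p = 0.0107) and dusp6.L (-0.58 ± 0.17, adjusted p = 0.0476). At day 11, 11 of the 16 genes with 200 counts were over 2-fold lower in the crushed eye and 1 over 2-fold higher, against 19.3% and 19.6% of all genes, and at day 3, 0 were lower and 3 higher, against 5.49% and 8.18%. The phosphatase dusp5.L was higher in the crushed eye on each day, its log2 ratio being 0.85 at day 1, 3.03 at day 3, 2.45 at day 7 and 1.93 at day 11 (slope adjusted p = 0.433). Its other copy, dusp5.S, was at -0.49 at day 11. Without day 1, spry3.S and spred3.L had adjusted p = 0.195 and 0.108. Without day 7, spred1.L, spred3.L and dusp6.L had adjusted p = 0.0575, 0.135 and 0.11. Without day 11, spry4.S, spry3.S, spred1.L, spred3.L, dusp4.L and dusp6.L had adjusted p = 0.0565, 0.222, 0.447, 0.253, 0.104 and 0.315. Without the block by day, spred3.L and dusp6.L had adjusted p = 0.0526 and 0.0522.

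**Figure D5:**
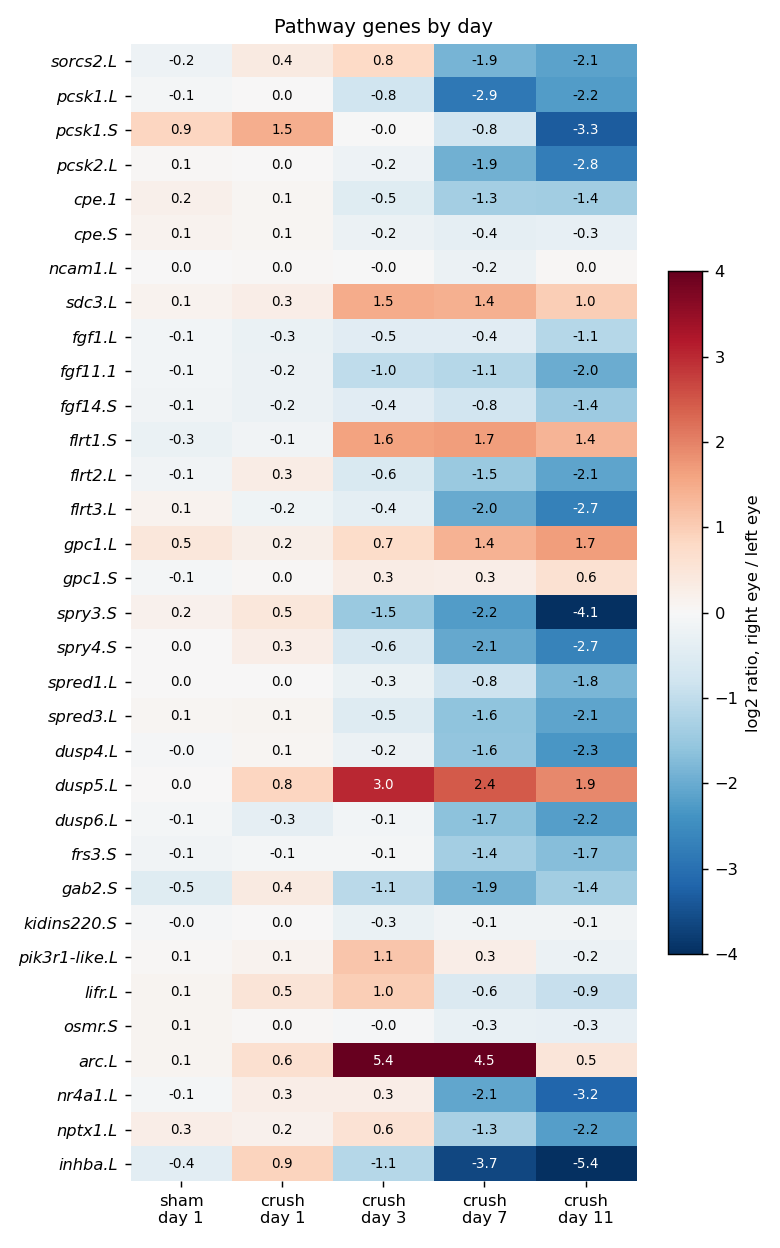
Log2 ratio of right to left eye for sham at day 1 and crush at days 1, 3, 7 and 11, printed in each cell, for the list genes whose slope passed and the 2 most abundant of each list without the members; colours saturate at ±4. The phosphatases dusp4.L and dusp6.L were at -2.32 and -2.20 at day 11, whereas dusp5.L was at 1.93 and its other copy, dusp5.S, at -0.49.

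Of 31 receptor adaptors and effectors, 0 rose and 2 fell, with a median slope of -0.07. With 6.85% of all genes falling, 2 of 31 is near the background share. The adaptor frs3.S, which links FGF and Trk receptors to MAP kinase in mammals, fell (-0.52 ± 0.14, adjusted p = 0.0409), with adjusted p = 0.12 without day 7 and 0.269 without day 11. The docking protein gab2.S fell too (-0.58 ± 0.16, adjusted p = 0.037), with adjusted p = 0.59 without day 1, 0.116 without day 7 and 0.0625 without the block by day. Its other copy went the opposite way, with log2 ratios at day 11 of 1.64 for gab2.L and -1.38 for gab2.S. The Trk scaffold kidins220.S, the most abundant of the list, had log2 ratios from -0.27 to 0.02, and pik3r1-like.L, a regulatory subunit of PI 3-kinase, from -0.22 to 1.12. Neither passed.

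Of 7 receptors of the gp130 cytokine list, 0 rose and 0 fell, and osmr.S and lifr.L had slope adjusted p of 0.562 and 0.127. Of 17 activity-regulated genes, a class to which BDNF belongs in mammalian neurons, the median slope was -0.59. Among them 0 rose and 3 fell (all genes: 5.83% and 6.85%). These were nptx1.L, a neuronal pentraxin (-0.73 ± 0.19, adjusted p = 0.046), the nuclear receptor nr4a1.L (-1.03 ± 0.24, adjusted p = 0.0234) and the activin subunit gene inhba.L (-1.92 ± 0.34, adjusted p = 0.0085). At day 11 inhba.L had 5.28 CPM on the contralateral side and 0.0794 CPM on the crushed side, which is 3 counts and so at the floor of detection. The immediate early gene arc.L had a log2 ratio of 5.4 at day 3 and 4.48 at day 7, between 0.64 at day 1 and 0.47 at day 11, and its slope did not pass. Without day 7 nptx1.L had adjusted p = 0.131, and without day 11 nr4a1.L, nptx1.L and inhba.L had adjusted p = 0.187, 0.296 and 0.0528. With limma-voom or no filter on low counts, nptx1.L had adjusted p = 0.0644 and 0.0568, and without the block by day 0.184. Of the 12 activity-regulated genes with 200 counts, 5 were over 2-fold higher and 1 lower at day 3, and 0 higher and 7 lower at day 11. The shares of all genes were 8.18% and 5.49% at day 3 and 19.6% and 19.3% at day 11. In the same test 14 of 21 ganglion cell markers fell and 0 rose, and the part of this decrease in the falls of list genes was not tested.

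The closest profiles to each member were sought by Pearson's r of log2 CPM over the 11 TRAP libraries, among 12966 genes with symbols. These libraries share the crush days, and r is a description with no p. bdnf.L ran closest with cacna1a-like.1 (r = 0.973), smc3.S, shc3.L, lamp5.S and slc12a5.S (0.965), and 122 genes were over 0.9. fgf9.L ran closest with mafa.L (0.996), foxd1.L, glce.L, prrt1.L and igdcc4-like.L (0.995), with 1501 genes over 0.9. gfra2.L ran closest with tmbim6.S (0.996), eef1b2.L, rpl23.L, rps26.L and eif3m.S (0.994), with 1476 over 0.9, and gfra2.S with fry.S (0.991), camk4.S, lrrc4c.S, pnck.1 and gpr123.S (0.989), with 1127. Among the members, r was -0.991 between gfra2.L and fgf9.L, -0.911 between the gfra2 copies, 0.909 between bdnf.L and gfra2.S and 0.682 between bdnf.L and fgf9.L. Strongly negative r was common as well, with 1526 genes under -0.9 for gfra2.L, 1490 for fgf9.L, 698 for gfra2.S and 53 for bdnf.L. The numbers of genes over 0.9 show that such likeness was common for fgf9.L, gfra2.L and gfra2.S. It was much less so for bdnf.L, with 122 of 12966 genes.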

How the data were processed

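RNA-seq of 11 TRAP libraries and 1 total retina library was analysed. The submitters' processing notes name RSEM 1.2.21, Bowtie2 2.2.5 and Trimmomatic 0.33. The genome build is not given in the sources used here. Per the file headers, the authors' tables hold an expected count (estimated by RSEM), a TPM value, a model length and an effective length. Levels per kilobase and shares per length were computed with the effective length, whereas the lengths quoted in bases are model lengths. Of the expected counts, 57.89% were whole within 0.001, and they were rounded for testing. The deposited TPM values served as an alternative scale.

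Tests were edgeR 4.0.16 quasi-likelihood F tests (robust, TMM, filterByExpr) in R 4.3.3, with Benjamini-Hochberg adjustment over all genes tested and a threshold of 0.05. Crush and contralateral libraries were fitted with day as a block, since both eyes of a day came from the same frogs per the labels' protocols. Deviations of same-day libraries from their group means correlated across genes at 0.0834, 0.0595, 0.0465 and 0.043 at days 1, 3, 7 and 11. In the contralateral against unlesioned test, the p-values measure the spread between pooled libraries within each group. That spread also holds differences between the contralateral days and between naive and sham eyes. Both sham eyes came from the same frogs, which the fit did not model. The crush tests have 1 library per eye and day, so no condition is replicated. Their residual holds departures of the day ratios from a constant, or from a line in log2 of the day, along with library spread. These sources cannot be told apart. Single-day ratios are log2 ratios of CPM with a prior count of 2, folds are without it, and intervals are exact conditional binomial (95%). DESeq2 1.42.0 and limma 3.58.1 were alternatives, besides other scalings, no filter, TPM, no block and each day left out. Summing the copies was chosen after seeing the data.

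Members and gene lists were chosen with earlier results of these data known. Named were the members and their homeologs, list genes past the threshold (at most 6 a list and test), the 2 most abundant genes of each list and the 5 genes most like each member. Named besides, after their values were seen, were sort1.S, the markers vim.L, mpz.L, pmp22.L and pmp22.S, and the homeologous pairs cnp-like and hspb1. So were gab2.L, dusp5.S, fgf1.S, fgf14.L and flrt1.L, the other copies of list genes. Some list genes have no model with their symbol and were not analysed here.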

Additional observations from a re-analysis of the deposited data

How the results depend on the processing

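For the 4-day crush test (10 genes passing), RLE scaling gave 10 and limma-voom 12, total counts gave 6, no filter on low counts 25, DESeq2 3127 and the fit with no replicate block 0; leaving out 1 day gave 0 to 2678 (0 without day 7, 2 without day 11, 4 without day 3 and 2678 without day 1). For the slope with day (3296), the fit with no replicate block gave 2815, and leaving out 1 day gave 1233 to 5163 (1233 without day 11, 1527 without day 7, 5163 without day 3). Without the block, 8 of the 20 list genes no longer passed (sorcs2.L, pcsk1.S, pcsk2.L, gpc1.L, spred3.L, dusp6.L, gab2.S and nptx1.L). For contralateral against unlesioned eyes (0), no filter gave 85, DESeq2 18, and leaving out 1 library 0 to 2 (2 without contralateral day 1). The causes were not tested. Mean log2 ratios over the days kept their signs with each day left out: -0.70 to -0.11 for bdnf.L, -2.25 to -1.28 for fgf9.L, 1.65 to 2.94 for gfra2.L and -1.71 to -0.70 for gfra2.S. With the gfra2 copies summed, the mean for the gene was 1.40. Without division by length, the gfra2.L share in crushed eyes was 39.8%, 64.4%, 96.9% and 99.0% at days 1, 3, 7 and 11. The single-day ratios of fgf9.S and gfra2.L at day 1 and of gfra2.S at days 1 and 3 changed sign against the mean of the 7 uncrushed libraries. Those of the members at days 7 and 11 kept theirs under that reference, a prior count of 0.5, total counts, RLE and TPM. Sizes changed more often. Counting each day and setting, 32 ratios of the members and their homeologs lay outside the main counting interval and 88 within it. In the crushed eye at day 11, gfra2.S and bdnf.S rest on 71.0 and 37.7 expected counts, and inhba.L on 3.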
